A study of Danio rerio with 6 samples.

Results

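The collagen genes were examined by RNA sequencing of whole zebrafish embryos collected 48 hours post-fertilization (hpf), with 3 libraries of wildtype embryos and 3 of embryos homozygous for a dnajc21 mutation. Members were the rows of the deposited count table whose symbol begins with col, a type number, the letter a and a chain number, 57 of 35197 rows. Of these, col4a3bpa and col4a3bpb encode ceramide transfer proteins and are not collagens, which left 55 collagen genes: 16 fibrillar, 12 of basement membranes, 11 fibril-associated and 16 of other types. Each library was made from a pool of 30 to 50 untreated embryos, and the table names its wildtype columns casper, after a strain that lacks most pigment. The lesion and the strain background of the mutants are not stated in the labels, nor whether each pool was a clutch of its own, and the p-values rest on library-to-library spread that may be partly technical.

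Collagens are extracellular proteins in which chains with regularly spaced glycines wind around each other in a rope-like helix. Fibrillar collagens assemble into the banded fibrils of skin, tendon, cartilage and the notochord sheath, and the fibril-associated collagens bind to the surface of those fibrils. Type IV collagen forms the sheet-like network of basement membranes, where types VII, XV and XVIII are attached. The remaining types include beaded filaments around muscle, short-chain networks, membrane-spanning collagens of cell contacts, and the type XXVIII chains with von Willebrand factor A domains. Before export from the cell, collagen chains are hydroxylated and folded in the endoplasmic reticulum, and outside the cell they are trimmed and cross-linked.

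Total counts ran from 8600951 to 11798543 per library. Levels are given in CPM, where each count is divided by its library total after scaling by TMM (trimmed mean of M values), with the SD over 3 libraries. They are not divided by transcript length, so levels are compared between groups and never between genes. Fold changes are log2 mutant over wildtype from edgeR's quasi-likelihood test, and a gene is called where the Benjamini-Hochberg adjusted p over all 20229 genes tested is under 0.05. The targeted gene, dnajc21, went from 26.1 ± 4.27 CPM in wildtype to 17.96 ± 1.48 CPM in the mutants (log2 fold change -0.55, SE 0.12, edgeR adjusted p = 0.00492), so most of its transcript was still counted in the libraries labelled mutant.

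Collagen transcripts were mostly higher in the mutants, by small amounts. Of 52 collagen genes with enough counts to be tested, 23 rose and 1 fell, against 5.85% of all tested genes called higher and 5.87% called lower. The members called higher were 44.2% of those tested. Their log2 fold changes lay between 0.24 and 0.72 with a median of 0.30, or 1.18-fold to 1.65-fold, and 2 of them reached 1.5-fold. The 1 gene that fell was col28a2a, at 3.64-fold lower.

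Genes without a call leaned the same way. Among the 28 collagen genes that did not pass, 21 had positive log2 fold changes and 7 negative ones. The median over all 52 was 0.24, where the median over all genes tested was -0.01, and 44 members were positive, 84.6% of them against 49.0% of all genes tested. All 3 mutant libraries lay above all 3 wildtype libraries in 31 members, 59.6%, where 15.1% of all tested genes did so. They lay below in 1 member, where 15.3% of all genes did so. Summed over its genes, the fibrillar class measured 7250.4 ± 201 CPM in wildtype and 8491 ± 493 CPM in mutants, and the fibril-associated class 1415 ± 57.3 and 1843 ± 128 CPM. The basement membrane class summed to 1055 ± 39.4 and 1162 ± 13.2 CPM, and the other types to 668 ± 24.2 and 669.8 ± 22.2 CPM. Without col28a2a, a choice made once its values were known, the other types summed to 559 ± 26.7 and 639.8 ± 22.2 CPM. In bulk RNA, more or fewer cells of a type and more or less RNA per cell cannot be told apart.

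The count changed with single libraries left out. Without mutant replicate 1, 11 of 52 members were called higher, when 3.46% of all genes were, and without mutant replicate 2, 10 were, when 2.97% of all genes were. With any 1 library left out, 43 or 44 members had a positive value. The genes col5a2a, col6a2, col6a3, col9a1b, col12a1a, col12a1b, col21a1 and col24a1 rose, and col28a2a fell, with any 1 of the 6 libraries left out. Of the 23 genes that rose, mutant replicate 1 held the highest level in 14 and wildtype replicate 1 the lowest in 13. These libraries also had the highest and lowest total counts, 11798543 and 8600951. A link between the 2 was not tested, and the share of all genes with these extremes was not computed.

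**Figure D1:**
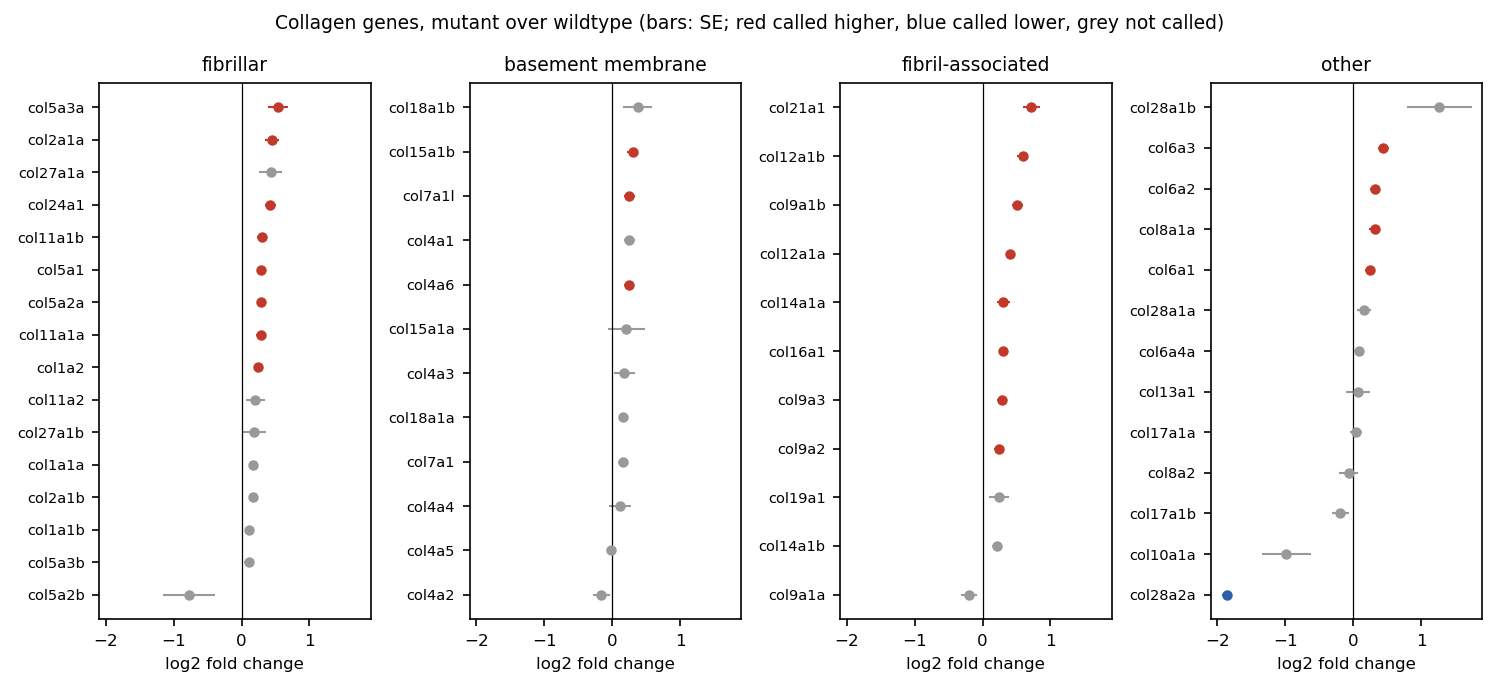
Log2 fold change, mutant over wildtype, of the 52 tested collagen genes in 4 classes, with SE as bars; red marks genes called higher, blue lower and grey not called. Most points lie to the right of 0 in every class, and col28a2a stands alone at -1.86 in the class of other types.

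The fibrillar class had 8 of 16 members called, each of them higher, beside 11.7% of all genes called in either direction. The chains of type I collagen, the main fibril protein of skin and bone, had unequal values. The col1a2 gene measured 864, 846 and 799 CPM in wildtype replicates 1 to 3 and 1000.2, 1039 and 931 CPM in mutants 1 to 3 (log2 fold change 0.24, SE 0.06, edgeR adjusted p = 0.0126). Every mutant library lay above every wildtype library. The partner chains col1a1a and col1a1b, teleost duplicates of each other, measured 1932 ± 127 and 1256 ± 52.2 CPM in wildtype, and 2174 ± 99.5 and 1361 ± 49.1 CPM in mutants. Their groups overlapped and neither passed (0.17 and 0.12; adjusted p = 0.0630 and 0.202). The col1a1a row shares reads with the row AL929222.2, and the sum of both rows had a log2 fold change of 0.17 (adjusted p = 0.0556).

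Type II collagen is the fibril protein of cartilage and the notochord sheath, and type XI chains start and size its fibrils. The col2a1a gene measured 884, 952 and 858 CPM in wildtype and 1426, 1205 and 1047 CPM in the mutants, a rise of 0.45 (SE 0.10, edgeR adjusted p = 0.0228). The groups did not overlap, and the mutants spread widely with replicate 1 on top. Its duplicate col2a1b had little spread in wildtype, 501 ± 3.82 CPM, and 563 ± 23.3 CPM in mutants (0.17, adjusted p = 0.0747). The type XI gene col11a1a rose from 663 ± 35.9 to 805 ± 54.0 CPM (0.28, adjusted p = 0.00829) and col11a1b from 129 ± 7.39 to 158 ± 6.45 CPM (0.30, adjusted p = 0.00784). The third chain gene, col11a2, overlapped between groups at 168 to 211 and 183 to 261 CPM (0.20, adjusted p = 0.449); its reads are shared with hsd17b8, and the sum had 0.21.

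Type V chains seed type I fibrils. Here col5a1 rose from 303 ± 15.8 to 369.5 ± 9.03 CPM and col5a2a from 206 ± 3.63 to 251 ± 3.31 CPM, with the same log2 fold change of 0.28 (SE 0.06 each, edgeR adjusted p = 0.00605 and 0.00489). The third chain, col5a3a, measured 8.31, 10.5 and 13.998 CPM in wildtype and 16.1, 16.1 and 15.99 CPM in mutants (0.54, adjusted p = 0.0266), so the wildtype libraries supplied the spread. Its duplicate col5a3b (0.10, adjusted p = 0.365) and the scarce col5a2b (-0.78, SE 0.39, adjusted p = 0.218; 1.66 ± 0.569 and 0.969 ± 0.136 CPM) were not called. Of the minor fibrillar genes, col24a1 rose from 31.5, 31.9 and 32.6 CPM to 41.2, 42.7 and 45.1 CPM (0.43, SE 0.08, adjusted p = 0.00124), with a gap between the groups wider than either group's range. The type XXVII duplicates col27a1a and col27a1b, of cartilage and the notochord, had 0.43 and 0.18 (adjusted p = 0.119 and 0.582).

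Most fibrillar calls ended with some single library left out. Fibrillar calls numbered 4 without mutant replicate 1 and 2 without mutant replicate 2. Of all genes, 3.46% and 2.97% were called higher in these fits, against 5.85%. There the log2 fold change of col11a1b was 0.27 and 0.29, against 0.30. That of col2a1a was 0.33 and 0.46, against 0.45. Without mutant replicate 1, edgeR adjusted p was 0.0722 for col11a1a, 0.0549 for col11a1b and 0.0619 for col1a2. Without mutant replicate 2 it was 0.0505, 0.0547 and 0.115 for these genes, 0.0586 for col2a1a and 0.0568 for col5a1. Without wildtype replicate 3 it was 0.0701 for col1a2 and 0.0676 for col2a1a, and without wildtype replicate 1 it was 0.188 for col2a1a. The col5a3a call held only without wildtype replicate 3 and otherwise gave 0.0674 to 0.100. In the other direction, col1a1a (0.00398), col1a1b (0.0467) and col2a1b (0.0434) passed without wildtype replicate 1, and col27a1a (0.0445) without wildtype replicate 3.

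In the fibril-associated class 8 of 11 members rose, beside 5.85% of all genes called higher, and the median log2 fold change was 0.30. All 3 mutant libraries lay above all 3 wildtype libraries in 10 of the 11, where 15.1% of all tested genes did so. The exception was col9a1a. Type XII collagen, which links fibrils in fasciae, tendons and the embryonic fin, is encoded by a duplicate pair and both rose. The col12a1b gene measured 119, 156 and 149 CPM in wildtype and 208, 217 and 212 CPM in mutants (0.59, SE 0.09, edgeR adjusted p = 0.000366). The col12a1a gene measured 258, 294 and 276 CPM and then 370.1, 362 and 367 CPM (0.41, SE 0.06, adjusted p = 0.000420). In both genes the mutant libraries were close together and wildtype replicate 1 was the lowest.

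Type XXI collagen, a minor fibril-associated chain, gave the highest fold change among the called members. The col21a1 gene measured 8.89, 9.94 and 9.91 CPM in wildtype and 16.5, 15.97 and 15.1 CPM in mutants (0.72, SE 0.12, edgeR adjusted p = 0.000630). The gap between the groups was wider than the range of either. The col16a1 gene, for a collagen of fibril and membrane borders, rose from 96.9 ± 2.93 to 119 ± 3.89 CPM (0.30, adjusted p = 0.00536). For type XIV, which binds fibrils in skin and tendon, col14a1a rose by 0.31 (adjusted p = 0.0470) and col14a1b had 0.21 (adjusted p = 0.0557), and col19a1 had 0.24 (adjusted p = 0.317).

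Type IX collagen coats the type II fibrils of cartilage and the notochord, and its helix takes 1 chain from each of its subunit genes. The col9a1b gene measured 326, 333 and 326 CPM in wildtype and 544, 449 and 412 CPM in mutants (0.51, SE 0.08, edgeR adjusted p = 0.00120). The wildtype libraries were nearly equal, and mutant replicate 1 stood highest, as it did for col2a1a. The partner chains col9a2 and col9a3 rose from 227 ± 3.76 to 269.6 ± 32.4 CPM (0.25, adjusted p = 0.0439) and from 164 ± 7.12 to 200.04 ± 22.6 CPM (0.29, adjusted p = 0.0215). The duplicate col9a1a had 34.5 ± 5.06 and 30.0 ± 4.46 CPM (-0.20, adjusted p = 0.342).

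Calls of col9a1b, both type XII genes and col21a1 were made with any 1 library left out. In this class 5 genes were called without mutant replicate 1 or 2. Of all genes, 3.46% and 2.97% were called higher in these 2 fits, against 5.85%. Without mutant replicate 1, col9a2 had 0.15 (edgeR adjusted p = 0.287) and col9a3 had adjusted p = 0.164. The col9a2 call held only without mutant replicate 3, with 0.0684 to 0.287 otherwise, and that of col14a1a only without wildtype replicate 3, with 0.0782 to 0.224 otherwise. The col9a3 call also ended without wildtype replicate 3 (0.0638) and that of col16a1 without mutant replicate 2 (0.0552), whereas col14a1b passed without wildtype replicate 2 (0.0386). DESeq2 gave col14a1a an adjusted p of 0.255.

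**Figure D2:**
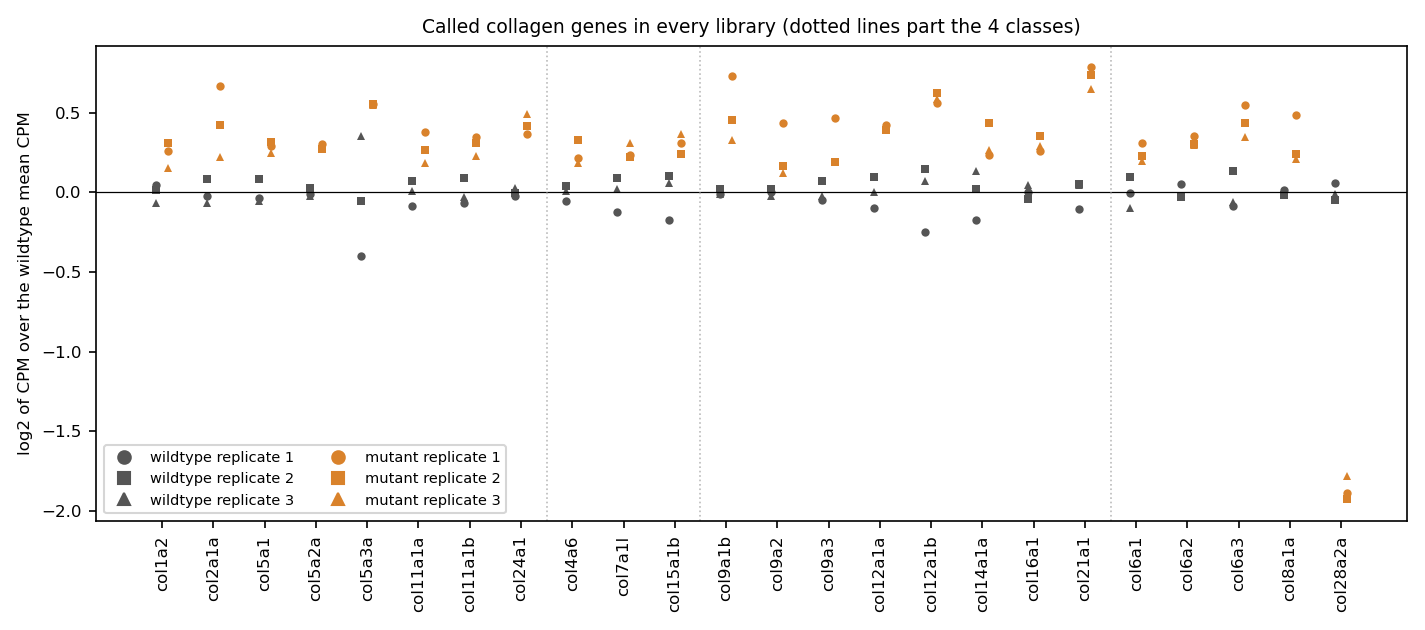
Log2 of each library's CPM over the wildtype mean CPM of the same gene, for the 24 called collagen genes; grey symbols are wildtype and orange symbols mutant libraries, with the replicate number as symbol shape. All mutant points of the 23 higher genes lie above all wildtype points, and mutant replicate 1 stands apart for col2a1a, col8a1a, col9a1b, col9a2 and col9a3.

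Of 12 basement membrane collagens 3 rose, beside 5.85% of all genes, and the median log2 fold change was 0.20. Among the type IV chains only col4a6 passed. It measured 214, 228 and 224 CPM in wildtype and 258, 279 and 252 CPM in mutants (0.24, SE 0.06, edgeR adjusted p = 0.0193), with no overlap. Its neighbour col4a5, whose chain joins the same helix, had 319 ± 11.7 and 317 ± 10.9 CPM (-0.01, SE 0.06, adjusted p = 0.944).

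The ubiquitous type IV pair had values of opposite sign and no call. The col4a1 gene measured 39.3, 46.8 and 42.5 CPM in wildtype and 54.8, 49.1 and 49.3 CPM in mutants (0.25, SE 0.08, edgeR adjusted p = 0.0573), and its neighbour col4a2 had 17.8 ± 2.67 and 16.04 ± 1.26 CPM (-0.16, SE 0.12, adjusted p = 0.454). The third pair, col4a3 and col4a4, had 0.18 and 0.12 (adjusted p = 0.491 and 0.710), and their counts were not whole numbers in any of the 6 libraries. Outside type IV, col15a1b, a collagen of muscle and vessel basement membranes, rose from 34.9 ± 3.49 to 43.1 ± 1.87 CPM (0.30, adjusted p = 0.0267). The anchoring fibril row col7a1l rose from 41.0 ± 3.09 to 49.0 ± 1.68 CPM (0.25, adjusted p = 0.0444), likewise with counts that were never whole numbers, and col7a1 had 0.16 (adjusted p = 0.199). Type XVIII collagen, the source of endostatin, had 0.16 for col18a1a and 0.37 for col18a1b (adjusted p = 0.0985 and 0.294), and col15a1a had 0.21 (0.692).

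The calls in this class ended with some single libraries left out. Of all genes, 3.46%, 2.97% and 3.28% were called higher without mutant replicates 1, 2 and 3, against 5.85%. The col4a6 call ended without mutant replicate 1 (edgeR adjusted p = 0.0575) or 2 (0.148), with log2 fold changes of 0.26 and 0.20 against 0.24. That of col15a1b ended without wildtype replicate 1 (0.0648) or mutant replicate 1 (0.0864), 2 (0.0622) or 3 (0.128), and that of col7a1l held only without wildtype replicate 2, with 0.0644 to 0.163 otherwise. Without wildtype replicate 2, col4a1 passed (0.0246). DESeq2 called 1 of the 12, beside 2.57% of all genes called higher by it.

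The remaining 16 collagen genes were the only class with calls in both directions, and col28a2a was the only lower call. Of 13 tested, 4 rose and 1 fell, beside 5.85% and 5.87% of all genes, and the median log2 fold change was 0.09. The type XXVIII gene col28a2a measured 114, 106 and 108 CPM in wildtype and 29.5, 28.8 and 31.8 CPM in mutants (-1.86, SE 0.07, edgeR adjusted p = 6.38e-11). All its counts were whole numbers, and the value lay between -1.91 and -1.83 with any 1 library left out. In mice, type XXVIII collagen is found around the glia of peripheral nerves.

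The other type XXVIII genes did not share this. The col28a1a gene had 18.8 ± 1.82 CPM in wildtype and 21.2 ± 1.103 CPM in mutants (0.16, SE 0.10, edgeR adjusted p = 0.343). The scarce col28a1b had 0.234, 0.780 and 0.460 CPM in wildtype and 1.52, 1.02 and 1.12 CPM in mutants (1.27, SE 0.48, adjusted p = 0.0986). The duplicate col28a2b was too low to be tested, with 6, 4 and 1 counts in wildtype and 26, 8 and 10 counts in mutants. Both scarce genes were higher in each mutant library than in each wildtype library, as were 15.1% of all tested genes. Their counts lay between 1 and 26, and neither gene was called. The count of col28a2a per count of col28a1a in the same library was 5.84 ± 0.656 in wildtype and 1.42 ± 0.0111 in mutants.

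Measured neighbours of col28a2a were not called. In the RefSeq gene order of assembly GRCz12tu, which was used for neighbours alone, bbs5 (-0.23, edgeR adjusted p = 0.546) and klhl41a (0.01, adjusted p = 0.991) lie on one side. On the other, lrp2a (0.28, adjusted p = 0.118) lies beyond zgc:172182, not analysed here.

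**Figure D3:**
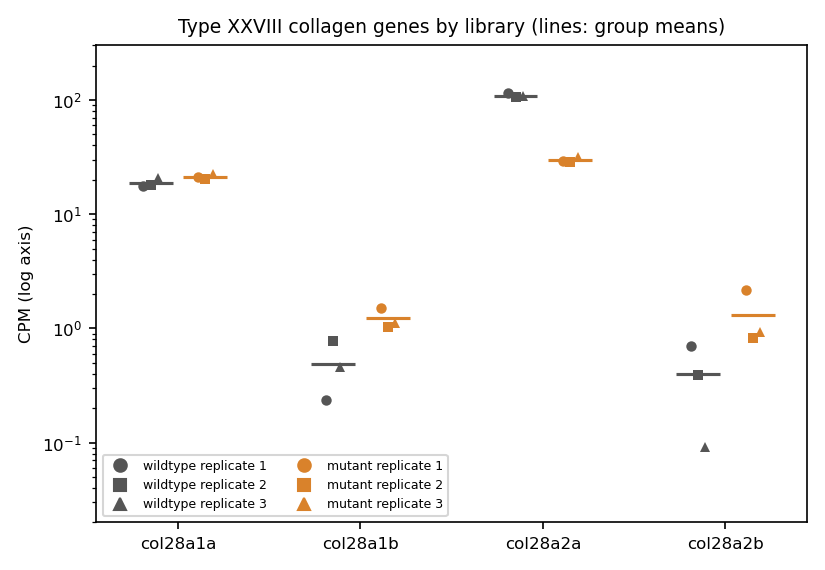
CPM of the 4 type XXVIII collagen genes in each library on a log axis; grey symbols are wildtype, orange symbols mutant, and lines mark group means. The col28a2a groups lie at 109 and 30.0 CPM, while mutant means of the other 3 genes lie above their wildtype means.

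Type VI collagen forms beaded filaments around muscle fibres and needs chains from all its main genes. All 3 of these rose. The col6a3 gene measured 71.6, 83.3 and 72.8 CPM in wildtype and 111, 102 and 96.7 CPM in mutants (0.45, SE 0.08, edgeR adjusted p = 0.000913). The col6a2 gene rose from 63.9 ± 2.14 to 79.6 ± 1.74 CPM (0.32, adjusted p = 0.00488) and col6a1 from 124 ± 8.59 to 147 ± 5.72 CPM (0.25, adjusted p = 0.0282). The fourth gene, col6a4a, overlapped between groups (0.09, adjusted p = 0.483).

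Short-chain and membrane-spanning collagens gave 1 further call. The col8a1a gene, needed for the notochord sheath in zebrafish, measured 41.5, 40.6 and 41.2 CPM in wildtype and 57.5, 48.6 and 47.5 CPM in mutants (0.32, SE 0.08, edgeR adjusted p = 0.0183). The col8a2 gene had -0.06 (adjusted p = 0.827). Type X collagen marks maturing cartilage and, in zebrafish, bone-forming cells, and col10a1a had 18.4, 11.9 and 8.75 CPM in wildtype and 8.76, 4.71 and 5.70 CPM in mutants (-0.98, SE 0.36, adjusted p = 0.159). These groups touched, with wildtype replicate 3 at the level of mutant replicate 1. The call of col10a1a depended on the fit: DESeq2 called it lower (adjusted p = 0.0175), as did edgeR with the replicate number as a block (0.000244), without robust weights (0.0414) or without wildtype replicate 3 (0.0490).

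The membrane-spanning genes col17a1a and col17a1b, of the junctions that hold epidermis to its basement membrane, had 0.04 (SE 0.08) and -0.19 (SE 0.13), and col13a1 had 0.07 (SE 0.17), with edgeR adjusted p of 0.798, 0.383 and 0.846. The genes col8a1b and col10a1b were too low to be tested, at 0.0921 to 0.702 and 0.117 to 0.927 CPM. The class had 3 calls without mutant replicate 1, where col8a1a (adjusted p = 0.126) and col6a1 (0.142) were lost. In that fit 3.46% of all genes were called higher, against 5.85%. The col6a1 call was also lost without wildtype replicate 3 (0.108) or mutant replicate 2 (0.101) or 3 (0.0696).

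Chains that share a helix or a gene neighbourhood were compared as ratios of counts within a library, which cancel the scaling between libraries. These ratios were chosen after the values had been seen and are given without a test. Of the 4 pairs of collagen genes that are direct neighbours, 3 are type IV pairs and the fourth is col9a2 with col16a1, which both rose. The count of col4a2 per count of col4a1 was 0.375, 0.421 and 0.447 in wildtype and 0.276, 0.315 and 0.355 in mutants. The count of col4a6 per col4a5 was 0.688, 0.687 and 0.712 in wildtype and 0.784, 0.905 and 0.804 in mutants. Both ratios separated the groups without overlap. For col4a4 per col4a3 the groups overlapped, at 0.566 to 1.00 and 0.628 to 0.736.

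Counts of duplicate genes were set against each other in the same way. The count of col9a1a per col9a1b was 0.106, 0.119 and 0.0908 in wildtype and 0.0645, 0.0609 and 0.0667 in mutants. That of col2a1b per col2a1a was 0.570, 0.522 and 0.586 in wildtype and 0.411, 0.468 and 0.515 in mutants. The type XII ratio, col12a1b per col12a1a, went from 0.460, 0.531 and 0.538 to 0.563, 0.601 and 0.578. In each of these 3 chosen pairs the groups did not overlap. Apart from these and type I, duplicate pairs were not compared as ratios. The share of all gene pairs whose ratios separate was not computed. In a pair left out, col11a1a and col11a1b, both genes rose by similar amounts (0.28 and 0.30). For col1a1b per col1a1a they also did not overlap but came close, at 0.634 to 0.664 in wildtype and 0.622 to 0.633 in mutants. The type IX chains col9a2 and col9a3 gave overlapping ratios of 1.34 to 1.44 and 1.32 to 1.37. Likewise col6a2 per col6a1 was 0.518 ± 0.0397 and 0.543 ± 0.00989, with overlap. For type I, the summed counts of col1a1a and col1a1b per count of col1a2 were 3.81 ± 0.0967 in wildtype and 3.57 ± 0.0764 in mutants. These type I ratios did not overlap between groups.

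**Figure D4:**
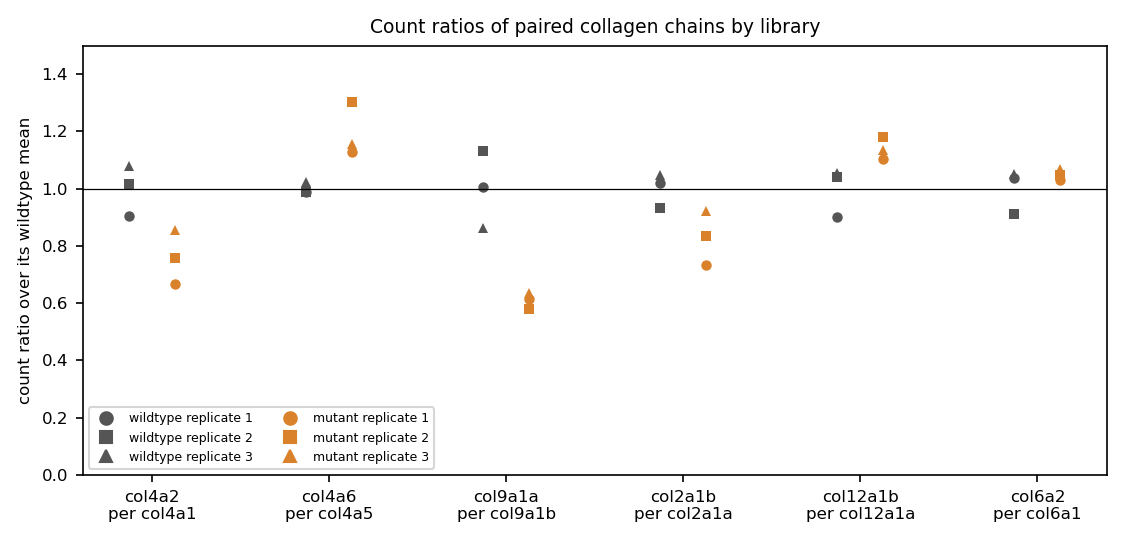
Ratio of the counts of paired collagen genes in each library, divided by the mean of that ratio in wildtype, so that wildtype lies around 1; grey symbols are wildtype and orange symbols mutant libraries. Mutant ratios lie below wildtype for col4a2 per col4a1, col9a1a per col9a1b and col2a1b per col2a1a, above it for col4a6 per col4a5 and col12a1b per col12a1a, and overlap it for col6a2 per col6a1.

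Genes that make, bind and break down collagen were followed in 6 lists, of which 129 genes were tested. In all, 23 of them rose and 8 fell, beside 5.85% and 5.87% of all genes. Folding and modification genes moved in both directions, with 3 higher and 5 lower of 22 tested and a median log2 fold change of -0.06. The 5 lower became 3, 2 and 2 without mutant replicates 1, 2 and 3, and 3 without wildtype replicate 3 or with DESeq2. Calls over all genes, in either direction, numbered 1454, 1242, 1356, 1956 and 1220 in these fits, against 2372. The prolyl 4-hydroxylase gene p4ha1b, whose enzyme hydroxylates proline to stabilise the helix, measured 16.4, 14.6 and 14.4 CPM in wildtype and 27.1, 32.0 and 33.2 CPM in mutants (1.03, SE 0.11, edgeR adjusted p = 4.98e-06). The prolyl 3-hydroxylase gene p3h2 rose from 13.7 ± 2.47 to 24.5 ± 0.867 CPM (0.85, adjusted p = 0.000143) and the lysyl hydroxylase gene plod1a from 30.0 ± 0.837 to 44.9 ± 2.81 CPM (0.58, adjusted p = 9.12e-05).

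The 5 lower genes included isomerases of the same compartment. The prolyl isomerase gene ppib, chosen after its values were seen, measured 609, 577 and 596 CPM in wildtype and 478, 457 and 505 CPM in mutants (-0.31, SE 0.06, edgeR adjusted p = 0.00264). The isomerase gene fkbp10b fell from 57.5 ± 2.60 to 42.3 ± 0.229 CPM (-0.44, adjusted p = 0.000641). The groups stood apart in both genes. The other lower genes, chosen in the same way, were p3h3 (-0.46), p4hb (-0.27), for the disulfide isomerase subunit of prolyl 4-hydroxylase, and p3h1 (-0.26). The collagen chaperone gene serpinh1b, also chosen so, had 44.7, 74.7 and 134 CPM in wildtype and 41.8, 42.5 and 46.8 CPM in mutants (-0.96, SE 0.46, adjusted p = 0.299), so wildtype varied most, and its duplicate serpinh1a had -0.03 (adjusted p = 0.874). Of 17 export genes 1 was called, near the 5.87% of all genes called lower. This was sar1b, for a GTPase of the export coat, which fell by 0.22 on the log2 scale (edgeR adjusted p = 0.0417). Export calls numbered 4 without wildtype replicate 1, and 2 without the low-count filter or without rows with non-whole counts. They numbered 0 with DESeq2, upper-quartile scaling, library totals alone or no robust weights, and without wildtype replicate 3 or any single mutant library.

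**Figure D5:**
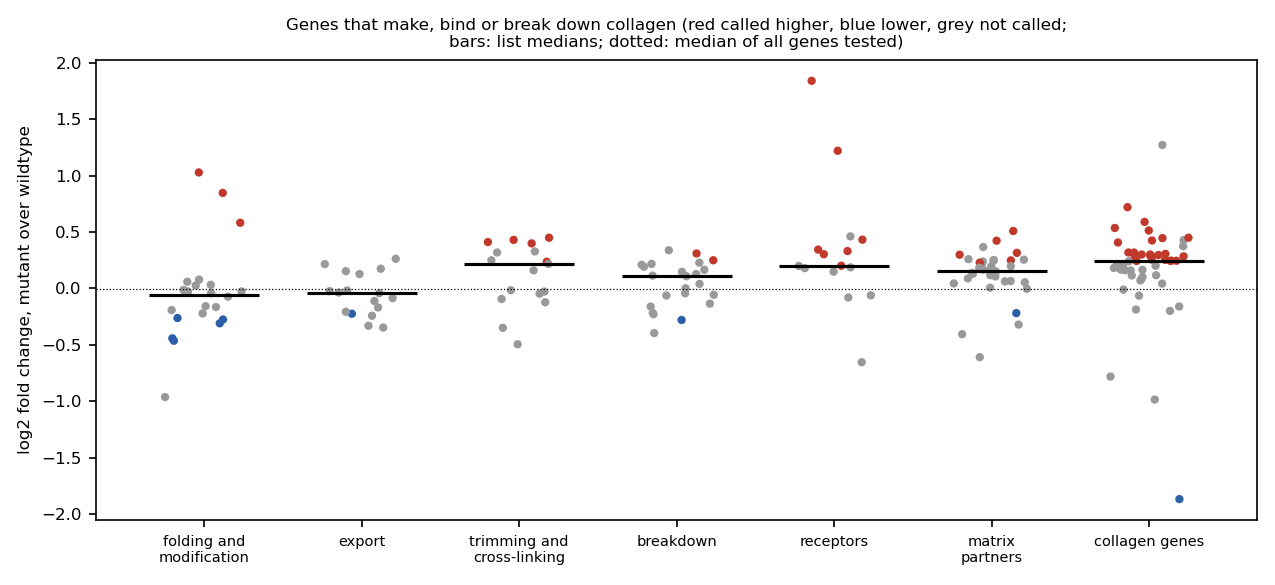
Log2 fold change, mutant over wildtype, of each tested gene in the 6 lists of collagen-related genes and of the 52 collagen genes; red marks genes called higher, blue lower and grey not called, bars mark list medians and the dotted line the median of all genes tested. The medians lie at -0.06 for folding and modification, -0.04 for export, 0.22 for trimming and cross-linking, 0.11 for breakdown, 0.20 for receptors, 0.16 for matrix partners and 0.24 for collagens.

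Outside the cell, trimming and cross-linking genes were higher where called. Of 17 such genes 5 rose, beside 5.85% of all genes, with a median log2 fold change of 0.22. DESeq2 called 1 of them, and edgeR called 3, 2 and 3 without mutant replicates 1, 2 and 3. Of all genes, DESeq2 called 2.57% higher, and edgeR 3.46%, 2.97% and 3.28% in these fits. The lysyl oxidase genes loxl1 and loxl2a, whose enzymes start the cross-links, rose from 18.3 ± 0.723 to 25.1 ± 0.918 CPM and from 32.9 ± 1.65 to 43.8 ± 2.05 CPM (0.45 and 0.41; SE 0.09 and 0.08; edgeR adjusted p = 0.00433 and 0.00196). The procollagen peptidase gene adamts3 (0.40, adjusted p = 0.0157) and the proprotein convertase gene furina (0.43, adjusted p = 0.0214) also rose. Among 23 breakdown genes 2 rose and 1 fell, near the 5.85% and 5.87% of all genes. EdgeR called 1 without wildtype replicate 3 or mutant replicate 1 or 2, and all calls ended without mutant replicate 3, while DESeq2 called 1. The gelatinase gene mmp2 (0.25, adjusted p = 0.0291) and the membrane-type metalloproteinase gene mmp15a (0.31, adjusted p = 0.0115) rose, and ctsk, for a collagen-cleaving cathepsin, fell (-0.28, adjusted p = 0.0354).

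Of 15 receptor rows tested 7 were called, all higher, beside 5.85% of all genes. Among these were itgb1b, itgb1b.1 and itgb1b.2, rows that share a name stem, so the calls may not be of separate genes. With 1 library left out, the calls of itgb1b and itgb1b.1, named after their values were seen, were kept in 2 and 1 of the 6 fits. DESeq2 called 4, beside 2.57% of all genes called higher by it. EdgeR called 2, beside 6.31%, where rows with non-whole counts in 3 or more libraries were left out. That removed 5 receptor rows, which could then give no call. The integrin gene itga11a, for a receptor of fibrillar collagen, measured 12.4, 9.94 and 8.38 CPM in wildtype and 26.8, 22.2 and 21.7 CPM in mutants (1.22, SE 0.14, edgeR adjusted p = 1.46e-05). Each mutant library was well above each wildtype library. The integrin gene itga10, for a receptor of type II collagen, rose from 10.1 ± 3.43 to 36.0 ± 2.23 CPM (1.84, SE 0.18, adjusted p = 0.000250). Its reads are shared with polr3c, and the sum of both rows rose by 1.28 (SE 0.11, adjusted p = 2.33e-07). The adhesion receptor gene adgrg1 (0.43, adjusted p = 0.00176) and the integrin subunit row itgb1b.2 (0.33, adjusted p = 0.00590) rose, and their counts were not whole numbers in any library.

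Matrix partners, the laminins, nidogens, perlecan and leucine-rich proteoglycans, had 6 higher and 1 lower of 35, beside 5.85% and 5.87% of all genes, with a median log2 fold change of 0.16. The numbers higher were 4, 3 and 4 without mutant replicates 1, 2 and 3, and 4 with DESeq2. The same fits called 3.46%, 2.97%, 3.28% and 2.57% of all genes higher. The laminin genes lamb2l and lamb1a rose (0.42 and 0.30; edgeR adjusted p = 0.00125 and 0.00770), as did nid1a, for the nidogen that ties laminin to type IV collagen, from 95.4 ± 4.95 to 119 ± 0.366 CPM (0.32, adjusted p = 0.00420), and frem1b, for a protein of the skin basement membrane (0.51, adjusted p = 0.00207). The gene that fell was lum, for a proteoglycan of collagen fibrils (-0.22, adjusted p = 0.0380), chosen after its values were seen.

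The pathway calls of p4ha1b, plod1a, p3h2, fkbp10b, ppib, loxl1, loxl2a, itga11a, itga10, adgrg1, itgb1b.2, lamb2l, frem1b and nid1a were made by edgeR with any 1 library left out. Those of adamts3 (adjusted p = 0.0971) and lamb1a (0.0553) ended without mutant replicate 2, and that of mmp15a without mutant replicate 3 (0.0721). Leaving out wildtype replicate 3 (0.103) or a single mutant library (0.0862 to 0.123) ended the mmp2 call, and the same libraries ended that of sar1b (0.120 to 0.156). For furina it was wildtype replicate 2 (0.0796) or a single mutant library (0.0524 to 0.116). The ctsk call held only without wildtype replicate 2 (0.0525 to 0.185 otherwise) and lum only without wildtype replicate 3 (0.0606 to 0.181 otherwise). Those of p3h3 ended without mutant replicate 2 (0.0787) or 3 (0.0518), of p4hb without wildtype replicate 3 or a single mutant (0.0641 to 0.103), and of p3h1 with each library but wildtype replicate 1 left out (0.0680 to 0.200). Calls in the 6 lists together numbered 19, 16 and 17 without mutant replicates 1, 2 and 3, against 31. Calls over all genes numbered 1454, 1242 and 1356 in the same fits, against 2372.

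Markers of cell types that the embryos hold were summed and counted beside these genes, where 5.85% of all genes were called higher and 5.87% lower. Of 13 cartilage markers tested 4 rose, cnmd (0.45), acanb (1.37), matn3b (0.54) and matn4 (0.22). The 14 cartilage markers found summed to 1127 to 1155 CPM in wildtype and 1236 to 1314 CPM in mutants. The cnmd call was made with any 1 library left out, but 1 of the 4 was made without mutant replicate 2, and 2 each without mutant replicate 1 or wildtype replicate 3. Of all genes, 2.97%, 3.46% and 4.63% were called higher in these fits. Of 18 fibroblast and tendon markers 2 rose and 1 fell, with sums of 1753 to 1831 and 1914 to 1940 CPM. In this list 9 markers had positive and 9 negative log2 fold changes, with a median of 0.05, so the sum does not speak for each marker. Of 15 skeletal muscle markers 3 rose and 2 fell, with sums of 50587 to 53634 and 54592 to 58155 CPM. This list held 11 positive and 4 negative log2 fold changes, so its sum does not speak for each marker either. The muscle markers that rose numbered 1 to 5 with 1 library left out, and those that fell stayed at 2. No higher call was left where rows with non-whole counts in 3 or more libraries were left out. That removed 7 of the 15 muscle rows, and a removed row can give no call. The sums did not overlap between groups in these 3 lists.

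The other lists gave fewer or mixed calls, beside the same shares of all genes. Of 13 notochord markers 1 fell, with sums of 2328 to 2423 CPM in wildtype and 2299.5 to 2562 CPM in mutants. Of 13 epidermis markers 2 rose and 3 fell, with overlapping sums of 15692 to 16751 and 16643 to 17631 CPM. In the epidermis list both higher calls ended without mutant replicate 2 or 3, when 2.97% and 3.28% of all genes were called higher. There 1 rose and 1 fell where its 3 rows with non-whole counts in 3 or more libraries were left out. Fin fold markers summed to 4388 to 4812 and 4263 to 4603 CPM, and endothelial markers to 215 to 221 and 235 to 237 CPM, the latter without overlap. With all 6 libraries and no block, edgeR, DESeq2 and limma-voom called 0 of 12 genes in both of these lists. An unadjusted edgeR p under 0.05 was found for 4 fin fold and 2 endothelial genes, and for 5160 of all 20229 genes tested. EdgeR called 1 fin fold gene with the replicate block or without wildtype replicate 1 or 2, and 1 endothelial gene without wildtype replicate 1. Of 6 bone markers tested 1 fell, the notochord marker entpd5a that is also in this list, with sums of 839 to 931 and 848 to 869 CPM, and bglap had 0 counts in all 6 libraries. Of 11 lens and retina markers 2 rose and 1 fell (764 to 1039 and 806 to 1123 CPM). Of 11 glia and neural crest markers 3 rose and 2 fell, with sums of 1035 to 1132 and 898 to 925 CPM that did not overlap. Of these 11, 6 had positive and 5 negative log2 fold changes. The part of these markers in the collagen values was not tested.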

How the data were processed

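Poly-A RNA of whole embryos was sequenced in 6 libraries. Per the submitters' processing notes, the authors used STAR and RSEM with genome build danRer11, and DESeq2 is named; versions, annotation and strand setting are not given in the sources used here. The deposited table holds RSEM expected counts per gene, not normalized. Each column header gives a genotype and a number, which match 1 sample title.

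Expected counts were rounded and fitted over the whole table in R 4.3.3 with edgeR 4.0.16: filterByExpr (minimum count 10), TMM, robust quasi-likelihood test, Benjamini-Hochberg adjustment. SE is the absolute log2 fold change over the square root of F. DESeq2 1.42.0 and limma-voom (limma 3.58.1) were alternatives. A count of 0 allows up to 3 counts, 0.253 to 0.351 CPM by library, for counting error only. Of the collagen rows, 13 hold non-whole counts in at least 1 library (tolerance 0.005), where reads are shared with other rows. Pairs of rows that share reads were taken as rows, each non-whole in 4 or more libraries, whose sums are whole in all 6 libraries (tolerance 0.011).

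The fit was tested on simulated data with known changes, planted in genes picked at random over all levels. It recovered 3 of 48 changes of 1.2-fold, 22 of 47 of 1.5-fold, 40 of 48 of 2-fold and 49 of 49 of 4-fold. Small changes were thus mostly missed in this simulation. It changed far fewer genes than the 2372 called in the data, at all levels, so these shares may not hold for the collagen genes. A gene without a call may have changed as much as a called one. The gene col4a1 had a log2 fold change of 0.25 without a call, and col1a2 had 0.24 with one. Named genes were dnajc21, every called collagen gene, the 3 collagens with the most counts in each class, partners of called genes in duplicate or neighbouring pairs, and the up to 4 called genes with the lowest adjusted p in each list; every other collagen gene is also given. The members, classes, lists and tests were chosen with earlier results of these data known. Rows of list genes whose symbol occurs more than once were left out. All 55 collagen symbols were found in the GRCz12tu table. Transcript lengths and sequences were not used here. Python 3.11.15 and matplotlib 3.10.9 made the plots.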

Additional observations from a re-analysis of the deposited data

How the results depend on the processing

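The number of collagen genes called higher was 18 to 26 under every other scaling, filter, tool, block and treatment of shared reads, against 23, and 10 to 22 with 1 library left out. Those called lower numbered 2 in place of 1 with the replicate number as a block, without robust weights and with DESeq2 (1 to 2 with 1 library left out), and col10a1a was the addition. Other counts with 1 library left out were 2 to 9 for fibrillar, 0 to 4 for basement membrane, 5 to 7 for fibril-associated, 3 to 5 for other collagens, 16 to 34 for pathway genes and 1242 to 2658 for all genes. The edgeR count of 0 for basement membrane came without mutant replicate 1 or 2, with 4 and 5 genes at an unadjusted p under 0.05. With all 6 libraries, 5 of the 12 and 5160 of all 20229 genes tested lay under it. DESeq2 called 1220 genes in all against 2372, 16 pathway genes against 31 and 1 basement membrane collagen against 3, and type IV chains alone gave 1. Without robust weights 5 fibril-associated genes were called against 8. The other alternatives kept these counts within 1.5 times. Signs changed only among uncalled genes with 1 library left out, in ranges of -0.042 to 0.32 for col13a1, -0.043 to 0.45 for col15a1a, -0.018 to 0.16 for col17a1a, -0.033 to 0.27 for col4a4, -0.034 to 0.020 for col4a5 and -0.15 to 0.051 for col8a2; the cause was not tested. Same-numbered libraries did not deviate together (correlations of -0.0497, -0.0025 and 0.0216). With deviations from means of 3 libraries this cannot exclude pairing, and the labels do not say whether the numbers pair the samples. With the replicate block edgeR called 2470 genes in all, against 2372, and 24 collagen genes higher, against 23. Other scalings moved the median of all genes by less than 0.01. Depth limits col5a2b, col28a1b, col28a2b, col8a1b and col10a1b, which lie near 1 CPM or below.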
